A study of Homo sapiens with 14 samples.

Results

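The KLF (Krüppel-like factor) genes encode transcription factors that bind GC-rich and CACCC-type sequences through zinc fingers near the C-terminus. The members were the rows named KLF2, KLF3, KLF4, KLF6, KLF7, KLF9, KLF10, KLF11 and KLF13 within the authors' deposited tables, which is 9 of the 10 genes on the list. There were 11261 genes in the comparison by siRNA and 11835 in that by deletion, and KLF5 was not analysed here. The study had 14 libraries of teloHAEC, a telomerase-immortalised line of endothelial cells from human aorta, and asked what follows when CALCRL, which encodes the calcitonin receptor-like receptor, is lowered. In the siRNA comparison, 4 libraries of cells given CALCRL siRNA by reverse transfection were set against 4 of cells given scrambled siRNA, with RNA taken after 24 hours. In the deletion comparison, 3 libraries from cells electroporated with Cas9 and guides flanking a CALCRL enhancer were set against 3 from cells given Cas9 and a guide against HPRT, with RNA taken 2 days later. All 4 groups were grown in medium with a VEGF growth kit, the labels mention neither flow nor cloning of the edited cells, and nothing states that libraries of a group came from separate cultures, so the spread behind each p-value may be technical.

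KLF2 and KLF4 are known in endothelium as genes switched on by laminar flow, through the kinases MEKK3, MEK5 and ERK5 and the MEF2 factors, and their products hold endothelial cells in a quiescent, anti-inflammatory and anticoagulant state. KLF10 and KLF11 were described as early genes of the TGF-beta response, and with KLF9 and KLF13 they repress transcription by recruiting the SIN3A corepressor. KLF3 represses through CtBP proteins, while KLF6 and KLF7 act mainly as activators, KLF6 being known from injury and repair and KLF7 from neurons.

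After enhancer deletion, KLF2, KLF4, KLF7 and KLF10 fell, and the lowest estimates were in the flow-responsive pair. The interval of KLF4 was wide (2.66% to 52.4% of the control), and differences between the genes were not tested. With a t distribution as reference, none of these falls passed the test. No rise of a KLF gene passed the test, though 3 of the 9 had positive log2 fold changes. For the deletion, the authors' deposited table put 4 of the 9 genes under an adjusted p-value of 0.05, here termed called, and all 4 were lower. Over all 11830 genes tested in that table, 15.8% were called and 8.44% were called lower. With siRNA, the authors' deposited table had 0 of the 9 genes called by the DESeq2 Wald test and 0 had an unadjusted p-value under 0.05, where 3.46% of all genes were called. The median log2 fold change of the 9 genes was -1.05 for the deletion and -0.06 for siRNA, and that of all tested genes was 0.00 in both.

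**Figure D1:**
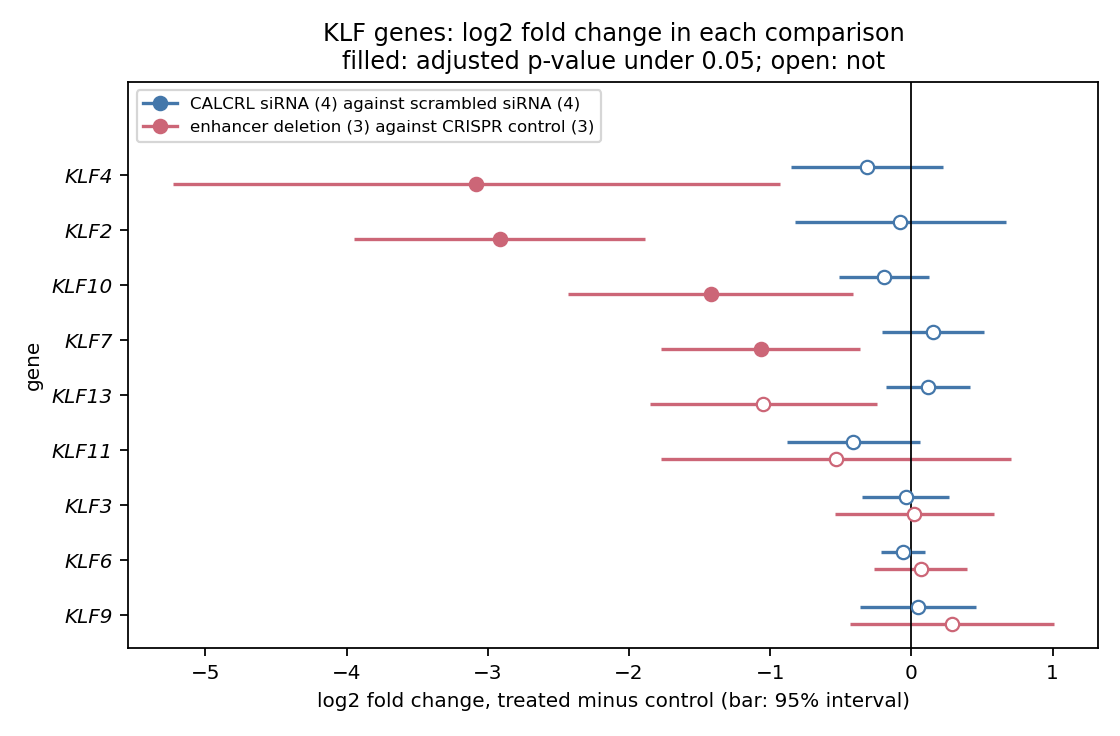
Log2 fold change (horizontal axis, treated minus control) of each KLF gene in the siRNA comparison (blue, 4 against 4 libraries) and the deletion comparison (red, 3 against 3), with bars for 95% intervals. Filled points have an adjusted p-value under 0.05, which holds for KLF2, KLF4, KLF7 and KLF10 after deletion and for 0 genes under siRNA.

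The promoters of the 2 genes with the lowest estimates after deletion are shown with that of KLF9. KLF9 did not pass the test, and its upstream sequence differs most from theirs in base composition. Each line holds the 250 bases before the RefSeq transcription start (GRCh38.p14), 5′ to 3′ on the gene's strand, at chr19:16324576-16324825 on the plus strand for KLF2, and on the minus strand at chr9:107489770-107490019 for KLF4 and chr9:70414658-70414907 for KLF9. Capitals mark matches to the MEF2 motif and to TGACG, the core of the cAMP response element, on either strand.
KLF2: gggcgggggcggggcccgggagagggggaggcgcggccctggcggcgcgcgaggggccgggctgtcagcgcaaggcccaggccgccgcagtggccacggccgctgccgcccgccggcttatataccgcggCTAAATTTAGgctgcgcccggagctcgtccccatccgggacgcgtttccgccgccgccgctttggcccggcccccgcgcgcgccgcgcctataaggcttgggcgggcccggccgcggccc
KLF4: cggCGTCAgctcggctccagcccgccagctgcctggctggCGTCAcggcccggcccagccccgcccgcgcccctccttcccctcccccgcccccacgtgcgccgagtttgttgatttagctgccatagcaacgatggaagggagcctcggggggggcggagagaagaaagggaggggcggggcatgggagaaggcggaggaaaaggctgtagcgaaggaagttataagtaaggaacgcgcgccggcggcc
KLF9: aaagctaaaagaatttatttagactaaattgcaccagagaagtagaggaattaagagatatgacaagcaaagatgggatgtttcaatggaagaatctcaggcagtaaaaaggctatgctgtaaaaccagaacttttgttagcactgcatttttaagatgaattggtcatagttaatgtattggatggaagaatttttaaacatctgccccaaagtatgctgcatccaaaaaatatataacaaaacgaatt

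The capitals in KLF2 are the MEF2 motif, which lies 120 to 111 bases before the start. Of the KLF genes studied here, KLF3 and KLF10 had no promoter in the RefSeq table. Among the 7 that had, the motif was found for KLF2 alone. Of all 35116 promoter windows of this length, 2.80% held that motif. In KLF4 the capitals are 2 copies of TGACG, from 247 to 243 and from 210 to 206 bases before the start, both on the opposite strand. TGACG was also found upstream of KLF11 and KLF13, so that 3 of the 7 KLF genes with a promoter in the table held it. Of all single windows, 21.2% held it, a share not directly comparable because KLF7 and KLF11 have several windows each. KLF9 held neither.

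G and C made up 80.0% of the KLF2 window, 69.2% of the KLF4 window and 32.4% of the KLF9 window, where the median of all windows was 58.0%. Genes that were not called also had high values, with 72.4% for KLF6, 78.8% for KLF13 and 78.8% and 74.4% for KLF11. The windows of KLF7, which was called, ran from 41.6% to 72.0%. The GC box GGGCGG, a binding sequence of SP and KLF factors, occurred 4 times upstream of KLF2 and 4 times upstream of KLF4 on either strand. It was found in 6 of the 7 genes, with KLF9 the exception, and in 42.6% of all windows. CACCC was found for KLF7, KLF11 and KLF13 and in 54.7% of all windows. KLF7 and KLF11 have more than 1 annotated start, and a match at any of them was counted. The counts of genes are therefore not directly comparable with the shares of single windows. The enhancer of this study is described in the series title as regulated by heat shock factor, so the heat shock element core GAANNTTC was searched as well. It was found for KLF7 alone, from 157 to 150 bases before 1 of its starts, and in 5.78% of all windows. All words were read on both strands and matches can share bases, as the 2 TGACG matches upstream of KLF11 do, and a match is a description of the sequence and not of binding.

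KLF2 (ENSG00000127528, chromosome 19, 16324817 to 16327874, plus strand, GRCh38) had the lowest Wald statistic and adjusted p-value among the KLF genes after deletion, while its fold change was second to that of KLF4. The deposited values imply a mean of 188 normalised counts in the CRISPR control group and 24.8 in the deletion group. This is 13.2% of the control level, with a 95% interval from 6.49% to 27.0%. Its log2 fold change was -2.92 (SE 0.52, adjusted p-value 6.25e-06 by the authors' deposited table), and its Wald statistic was the 50th lowest of 11830. Under siRNA the implied means were 165 for scrambled and 156 for CALCRL siRNA. The log2 fold change there was -0.08 (SE 0.38, adjusted p-value 0.990) by the authors' deposited table. That interval, from 56.3% to 159% of the control, does not reach the level seen after deletion.

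KLF4 (ENSG00000136826, chromosome 9, 107484852 to 107490482, minus strand) was the least abundant KLF gene in the deletion table. Its implied mean was 29.7 normalised counts in the control group and 3.51 in the deletion group, close to the limit of 3 counts under which no fold is given. The deletion level was 11.8% of the control, with a wide interval from 2.66% to 52.4%. The authors' deposited table gave a log2 fold change of -3.08 (SE 1.10) and an adjusted p-value of 0.0371. With the trend of fold change on GC content removed, KLF4 was at -2.83 and no longer passed the test (adjusted p-value 0.0662, within a range from 0.0371 to 0.976 over its alternatives). Under siRNA its implied means were 53.8 and 43.3, with a log2 fold change of -0.31 (SE 0.27, adjusted p-value 0.781) by the authors' deposited table.

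Of the SIN3A-recruiting genes, KLF10 fell after deletion, while KLF9, KLF11 and KLF13 did not pass the test. KLF10 (ENSG00000155090) went from an implied mean of 142 normalised counts in the control to 52.9, which is 37.3% of the control (95% interval 18.5% to 75.2%). Its log2 fold change per the authors' deposited table was -1.42 (SE 0.52, adjusted p-value 0.0412). This call was lost with the GC trend removed (-1.14, adjusted p-value 0.127) and with the trend on mean count removed (-1.29, 0.0703), within a range from 0.0338 to 0.976. KLF13 (ENSG00000169926, chromosome 15) went from 346 to 167, or 48.3% of the control (27.7% to 84.3%). The authors' deposited table put its log2 fold change at -1.05 (SE 0.41, adjusted p-value 0.0596), just outside the threshold. In a re-adjustment of the Wald test p-values, KLF13 passed at 0.0491, within a range up to 0.976. That adjustment left out genes with a mean under 8 CPM (the mean count scaled by the sum of means over the table). KLF11 (ENSG00000172059, chromosome 2), with implied means of 37.9 and 26.2, was at -0.54 (SE 0.63, adjusted p-value 0.611) by the authors' deposited table, an interval from 29.3% to 163% of the control. KLF9 (ENSG00000119138, chromosome 9), which glucocorticoids are known to induce, was at 0.29 (SE 0.37, adjusted p-value 0.642) by the authors' deposited table, with implied means of 150.0 and 183.

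Under siRNA none of these 4 genes passed the test. KLF11 had the lowest log2 fold change of the 9 KLF genes, -0.41 (SE 0.24, adjusted p-value 0.526) by the authors' deposited table, with implied means of 41.7 and 31.3. KLF10 was at -0.19 (SE 0.16, adjusted p-value 0.768), KLF13 at 0.12 (SE 0.15, 0.906) and KLF9 at 0.05 (SE 0.21, 0.989) by the authors' deposited table. Their intervals ran from 70.1% to 109% of the control for KLF10, from 88.1% to 134% for KLF13 and from 77.7% to 137% for KLF9, so that a fall as large as the deletion estimate of KLF10 or KLF13 lay outside the siRNA interval of that gene.

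Among the activators, KLF7 fell and KLF6 did not pass the test. KLF7 (ENSG00000118263, chromosome 2, 207074137 to 207167267, minus strand) lies on the chromosome that also carries CALCRL, as does KLF11, which did not pass the test. Its implied mean went from 446 normalised counts in the control to 213 after deletion, or 47.7% of the control (95% interval 29.3% to 77.9%). The log2 fold change per the authors' deposited table was -1.07 (SE 0.36, adjusted p-value 0.0275). KLF6 (ENSG00000067082, chromosome 10) was the most abundant KLF gene, with a mean of 305 CPM for the deletion and 304 CPM for siRNA. After deletion the authors' deposited table put KLF6 at 0.07 (SE 0.17, adjusted p-value 0.833), and its sign turned with the GC trend removed (-0.35) and with the trend on mean count removed (-0.074). As deposited, its interval was 83.3% to 131% of the control. Under siRNA KLF7 was at 0.15 (SE 0.18, adjusted p-value 0.890) and KLF6 at -0.06 (SE 0.08, 0.904) by the authors' deposited table. KLF3 (ENSG00000109787, chromosome 4), the CtBP-binding repressor, was at 0.02 (SE 0.29, adjusted p-value 0.970) after deletion, by the authors' deposited table, with an interval from 68.7% to 149.9% of the control. With siRNA KLF3 was at -0.04 (SE 0.16, 0.986 by the authors' deposited table).

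**Figure D2:**
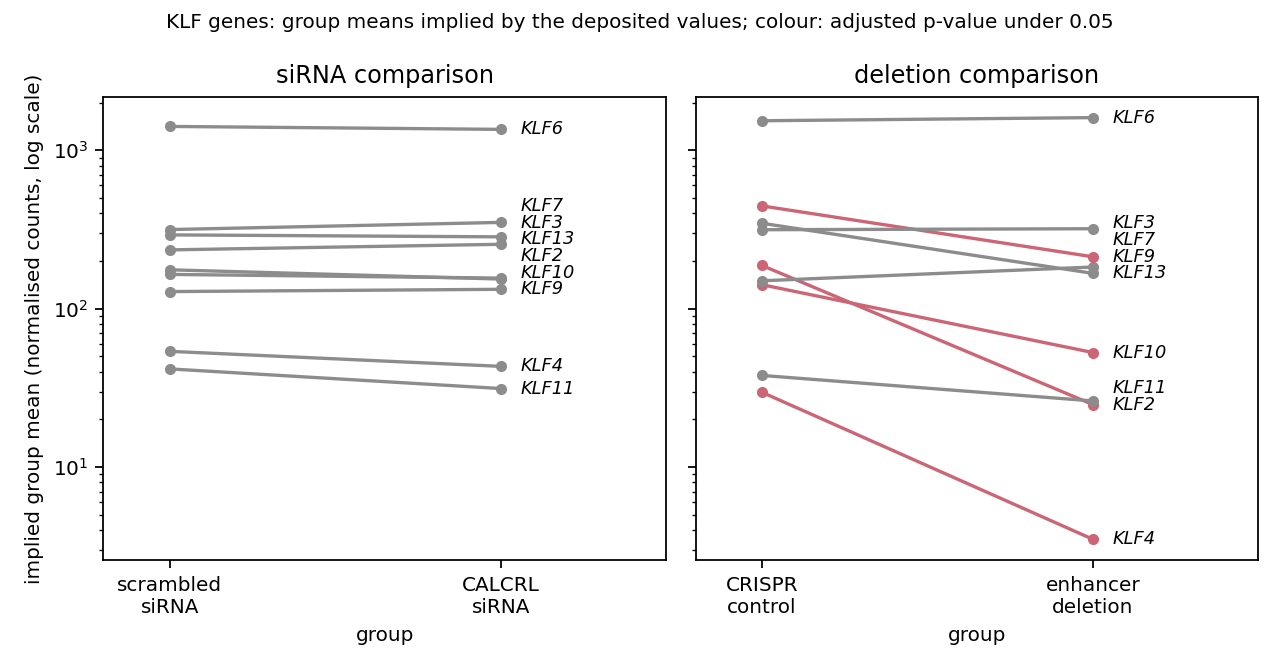
Mean normalised counts per group (log scale) implied by the deposited mean and fold change, with a line from the control to the treated group for each KLF gene, in colour where the adjusted p-value was under 0.05. KLF2 drops from 188 to 24.8 and KLF4 from 29.7 to 3.51 after deletion, while the lines of the siRNA panel are nearly flat.

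All calls of the deletion comparison rest on a normal reference. With a t distribution of 4 degrees of freedom as reference, or with the Wald statistics divided by their robust SD of 1.88, 0 KLF genes were called, with 3 and 1 at an unadjusted p-value under 0.05, and 0 genes of the whole table were called. For KLF2 the adjusted p-values were then 0.357 and 0.701, and over its other alternatives they lay between 4.66e-06 and 1.74e-05. In bulk RNA, fewer cells that carry a transcript and less transcript per cell cannot be told apart.

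**Figure D3:**
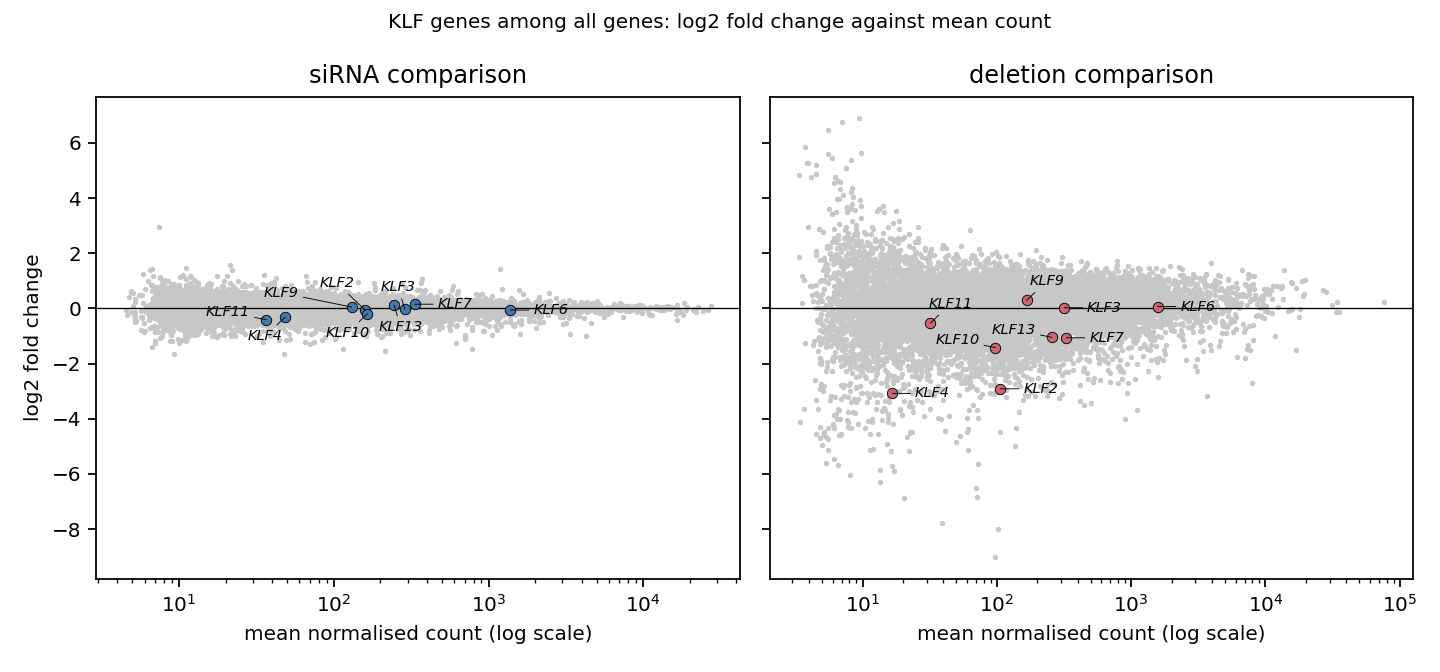
Log2 fold change (vertical axis) against mean normalised count (horizontal axis, log scale) for all genes (grey) and the 9 KLF genes (coloured, named) in the siRNA comparison (left) and the deletion comparison (right). KLF2, at -2.92, and KLF4, at -3.08, lie lowest of the KLF genes in the deletion panel, where the grey cloud is also wider than in the siRNA panel.

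The difference between the effects of the treatments was tested gene by gene from the deposited fold changes and standard errors. It passed the threshold for KLF2 and KLF7, with the siRNA value the higher in both. Across the 10891 genes tested in both tables, 7.22% passed with the siRNA value higher. The siRNA minus deletion difference was 2.84 (SE 0.65, adjusted p-value 0.000879) for KLF2 and 1.22 (SE 0.40, adjusted p-value 0.0273) for KLF7. With the difference statistics divided by their robust SD, 0 KLF genes passed and 1 had an unadjusted p-value under 0.05, and the adjusted p-value was 0.992 for KLF2 and for KLF7, the upper end of a range from 0.000841 for KLF2 and 0.0270 for KLF7.

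For KLF4, KLF10 and KLF13 the intervals of the difference also lay above 0, without passing the adjustment. KLF4 differed by 2.77 (95% interval 0.55 to 4.98, adjusted p-value 0.0790), KLF10 by 1.23 (0.17 to 2.29, 0.107) and KLF13 by 1.17 (0.31 to 2.03, 0.0533). The other 4 KLF genes differed by between -0.24 for KLF9 and 0.12 for KLF11, and each interval included 0. The treatments differ in delivery, time and control, which cannot be told apart here.

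The precision behind these values was uneven. Standard errors from the authors' deposited tables ran from 0.08 for KLF6 to 0.38 for KLF2 under siRNA and from 0.17 for KLF6 to 1.10 for KLF4 after deletion. Under siRNA the standard error of KLF2 was 2.54 times the median of the genes nearest to it in mean count, which placed it above 98.8% of all genes by this ratio, and no other KLF gene exceeded 1.53. The deposited values imply a coefficient of variation between siRNA libraries of 36.7% for KLF2 and 7.34% for KLF6. After deletion the ratio lay between 0.706 and 1.29 for all 9 KLF genes. Of the 214 genes tested in both tables with a siRNA ratio over 2, KLF2 among them, 207 were lower and 7 higher in the deletion table, with a median of -2.01. This threshold was chosen after the data were seen. Of the 214 genes, 144 were called lower after deletion, against 8.44% of all genes tested there, whose median was 0.00. Whether KLF2 was high in some siRNA libraries and low in others could not be read from the tables, and the part of this spread in the deletion result was not tested.

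**Figure D4:**
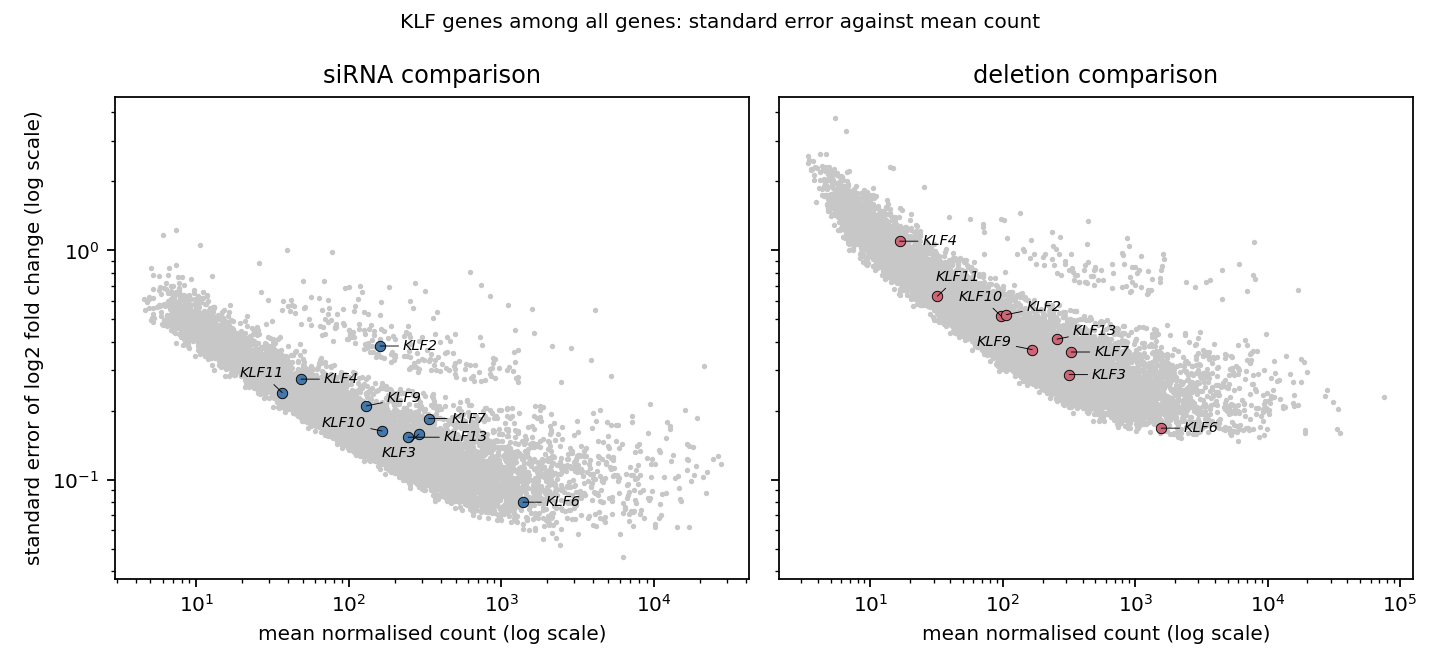
Standard error of the log2 fold change against mean normalised count (both on log scales) for all genes (grey) and the 9 KLF genes (coloured, named). KLF2 lies in a band above most genes in the siRNA panel, at 0.38, and among the bulk of genes in the deletion panel, at 0.52.

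The libraries were made with a 3′ tag kit, so each value was read near the end of the transcript. All 9 KLF genes matched a GENCODE 29 gene with an annotated 3′ UTR. In each gene's longest 3′ UTR form, the final 500 transcript bases held 45.8% G and C for KLF2 and for KLF7, 31.0% for KLF4, 29.4% for KLF10 and 28.4% for KLF3, against a median of 41.6% over 10905 genes. KLF4 and KLF10, whose calls were lost with the GC trend removed, thus lay among the genes with the lowest GC content, as did KLF3 and KLF9 (31.4%), which were not called. KLF6 had the highest value, 56.8%. The word TATTTAT, an AU-rich element found in many short-lived mRNAs, was present in the 3′ UTR of KLF2, KLF6, KLF7 and KLF11, which is 4 of 9, and in 36.4% of all genes. These shares were not adjusted for 3′ UTR length, whose median was 3179 bases for the KLF genes and 1676 for all genes. Of the genes that fell, KLF2 and KLF7 held it, and KLF4 and KLF10 did not.

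Upstream of KLF2 and KLF4, MAP3K3 rose and HEG1 fell after deletion among the genes of the MEKK3, MEK5, ERK5 and MEF2 route. Of 15 genes on this list, which also holds class IIa deacetylases and the cerebral cavernous malformation complex that restrains the route, 0 of 15 were called under siRNA by the DESeq2 Wald test (1 at an unadjusted p-value under 0.05) and 2 of the 14 analysed after deletion (5 at an unadjusted p-value under 0.05), where 15.8% of all genes were called. MAP3K3, which encodes MEKK3, rose (0.67, SE 0.22, adjusted p-value 0.0212 by the authors' deposited table), with implied means of 443 and 705. HEG1, the receptor that anchors the cerebral cavernous malformation complex, fell (-1.07, SE 0.31, adjusted p-value 0.00813 by the authors' deposited table), with implied means of 621 and 295. The rise of MAP3K3 no longer passed with the GC trend removed (0.48, adjusted p-value 0.123, within a range up to 0.976). HDAC7, the most abundant gene on the list, was at 0.23 (SE 0.24, adjusted p-value 0.553) for the deletion by the authors' deposited table. Below the unadjusted threshold alone, and chosen here after their values were seen, were MAPK7, which encodes ERK5, at -1.96 (SE 0.90, adjusted p-value 0.117), and MEF2D at -1.30 (SE 0.63, 0.145) after deletion by the authors' deposited table. MEF2C, chosen in the same way, went in the other direction, at 0.57 (SE 0.28, adjusted p-value 0.153 by the authors' deposited table). MAPK7 had implied means of 30.8 and 7.94, and MEF2D was at 40.6% of its control (95% interval 17.2% to 96.0%). Like KLF2, MAPK7 had a large siRNA standard error, 3.02 times the median of its neighbours in mean count. The list's median was 0.05 in each comparison.

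Of 12 genes that KLF2 and KLF4 are known to raise, 7 were analysed after deletion, and 0 were called by the DESeq2 Wald test (1 at an unadjusted p-value under 0.05), with a median of -0.21. Over all genes tested there, 15.8% were called. NOS3, the endothelial nitric oxide synthase, had implied means of 450.5 in the control and 415 after deletion, a log2 fold change of -0.12 (SE 0.28, adjusted p-value 0.819 by the authors' deposited table) with an interval from -0.66 to 0.43. THBD, the anticoagulant receptor thrombomodulin, had implied means of 615 and 455 and was at -0.43 (SE 0.22, adjusted p-value 0.159) by the authors' deposited table. Under siRNA 1 of 8 was called, NQO1, a redox enzyme, which fell (-0.33, SE 0.07, adjusted p-value 0.000106 by the authors' deposited table), while NOS3 was at -0.01 (SE 0.12, 0.993) and THBD at 0.04 (SE 0.13, 0.977) there. The median of the 8 was -0.09, and 3.46% of all genes were called under siRNA.

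Among genes that KLF2 and KLF4 are known to hold down, 2 of the 6 analysed were called after deletion (3 at an unadjusted p-value under 0.05), and both fell. Over all genes tested there, 15.8% were called and 8.44% were called lower. CCL2, a monocyte chemokine, went from an implied mean of 113 to 7.21 (-3.97, SE 0.72, adjusted p-value 6.89e-06 by the authors' deposited table). CXCL8, a neutrophil chemokine listed as IL8, went from 129.9 to 28.0 (-2.21, SE 0.53, 0.00138 by the authors' deposited table). ANGPT2, an angiopoietin, named after its value was seen, was at 0.72 (SE 0.33, adjusted p-value 0.115 by the authors' deposited table), with implied means of 315 and 519.6, the 1 positive value of the 6. The list's median was -0.24. Like KLF2, CCL2 and CXCL8 had large siRNA standard errors for their mean count, at 2.49 and 2.76 times the median of their neighbours in mean count. Under siRNA 1 of 9 was called, EDN1, the endothelin precursor, which fell (-0.37, SE 0.10, adjusted p-value 0.0151 by the authors' deposited table), and the median was 0.05. Of all genes, 3.46% were called under siRNA.

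**Figure D5:**
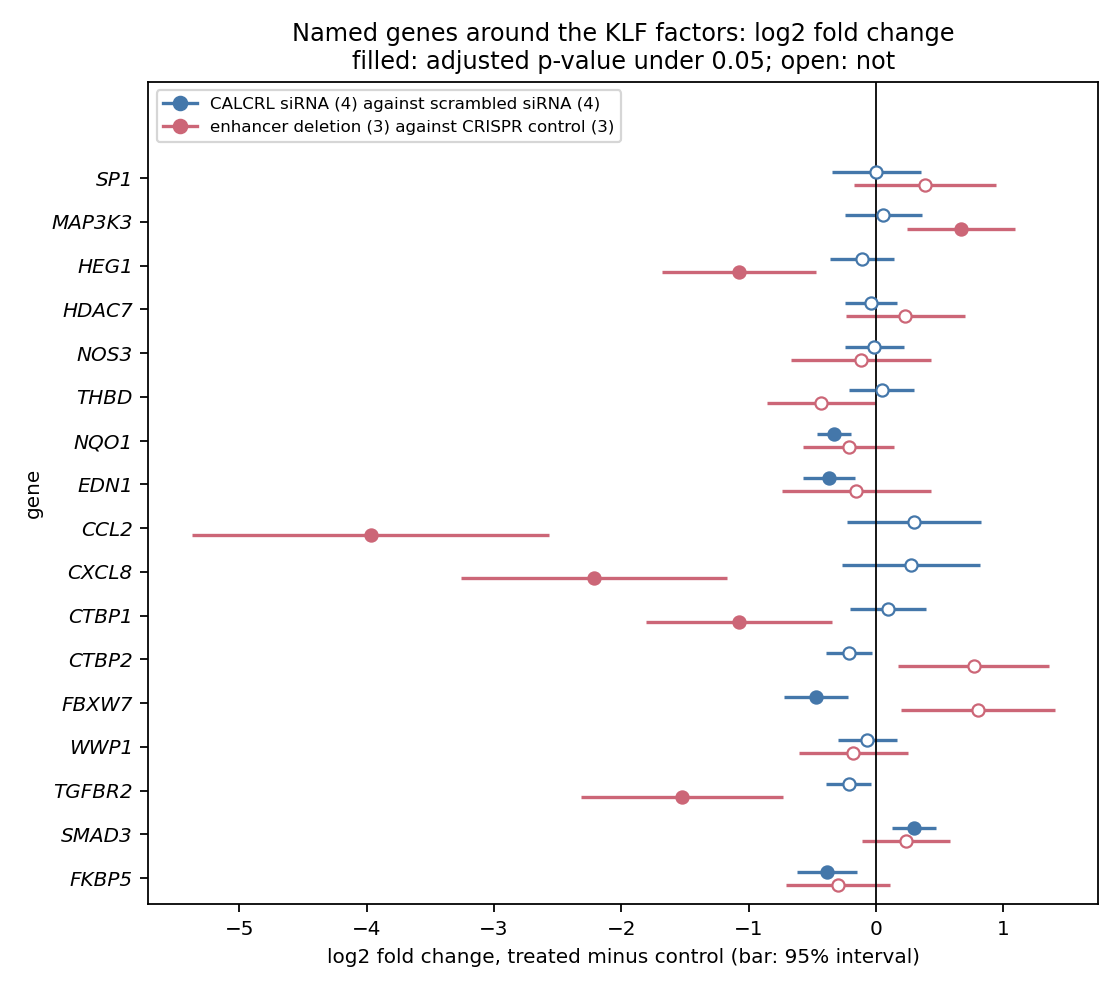
Log2 fold change with 95% interval (horizontal axis) of named genes upstream, downstream and around the KLF factors in the siRNA comparison (blue) and the deletion comparison (red), filled where the adjusted p-value was under 0.05. CCL2 and CXCL8 lie far to the left after deletion, while NOS3, at -0.12, and THBD, at -0.43, have open points.

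Of the partners of KLF proteins, CTBP1, which KLF3 recruits, fell after deletion (-1.07, SE 0.37, adjusted p-value 0.0323 by the authors' deposited table), the 1 called gene of 10 coregulators, where 0 of 10 were called under siRNA by the DESeq2 Wald test (2 at an unadjusted p-value under 0.05). Its paralog CTBP2 was at 0.77 (SE 0.30, 0.0621). Of 6 ubiquitin ligases that act on KLF proteins, FBXW7 fell under siRNA (-0.47, SE 0.13, adjusted p-value 0.0116 by the authors' deposited table) and was at 0.80 (SE 0.31, 0.0546) after deletion, and 0 of 6 were called after deletion (3 at an unadjusted p-value under 0.05). The most abundant, WWP1, was at -0.18 (SE 0.22, 0.627) after deletion. Among 12 genes of the TGF-beta and glucocorticoid routes that induce KLF9, KLF10 and KLF11, the receptor gene TGFBR2 fell after deletion (-1.52, SE 0.40, adjusted p-value 0.00409 by the authors' deposited table), with implied means of 855 and 297. TGFBR2 was the 1 called gene of the 11 analysed after deletion (3 at an unadjusted p-value under 0.05). Under siRNA SMAD3, a TGF-beta signal transducer, rose (0.30, SE 0.09, 0.0206) and FKBP5, a glucocorticoid-induced gene, fell (-0.38, SE 0.12, 0.0440) by the authors' deposited table. SMAD3 and FKBP5 were the 2 called genes of 12 under siRNA (5 at an unadjusted p-value under 0.05). For all of these lists, the share called over all genes was 15.8% after deletion and 3.46% under siRNA. Of the other SP and KLF genes, 7 were analysed and 0 were called in either comparison by the DESeq2 Wald test and 0 had an unadjusted p-value under 0.05, among them SP1 (0.39, SE 0.28, adjusted p-value 0.372 for the deletion by the authors' deposited table).

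The targeted gene was lower in both comparisons. CALCRL was at 34.0% of its control under siRNA and 36.2% after deletion, and HPRT1 did not pass the test after deletion (adjusted p-value 0.931 by the authors' deposited table). Of 10 endothelial markers, 9 were analysed, and their implied means summed to 6980 and 6713 in the scrambled and CALCRL siRNA groups and to 6410 and 5728 in the CRISPR control and deletion groups. CDH5, the junctional cadherin (-1.44, SE 0.35, adjusted p-value 0.00142), and KDR, a VEGF receptor (-1.05, SE 0.31, 0.00966), fell after deletion by the authors' deposited table, while TIE1 was at 0.09 (SE 0.20, 0.798). Of the 9 markers 5 had positive and 4 negative values after deletion, with a median of 0.05. The positive ones included ENG, VWF and CLDN5, named after their values were seen, at 0.59 (SE 0.35, adjusted p-value 0.248), 0.54 (SE 1.14, 0.794) and 0.45 (SE 0.42, 0.499) by the authors' deposited table. Under siRNA EGFL7 fell (-0.46, SE 0.11, 0.00213 by the authors' deposited table). Of 9 markers of smooth muscle, fibroblasts, leukocytes and epithelium, ACTA2, an actin of smooth muscle, was analysed, at -0.17 (SE 0.27, adjusted p-value 0.725) after deletion by the authors' deposited table. The part of these markers in the KLF results was not tested.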

How the data were processed

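RNA of 14 teloHAEC libraries was sequenced with a 3′ tag kit, per the labels' protocols. The authors' tools were featureCounts for reads and DESeq2 for the comparisons, per the file headers and names. The submitters' processing notes also name hg19 and edgeR 3.24.3, without a role. Each deposited table holds p-values before and after adjustment, a Wald score, a log2 fold change, its standard error, and a mean normalised count (signal). Decimal commas were read as points. No value per library was used, so the depth of each library is unknown, and the deposited standard error gives the precision. Counting by strand is not given in the sources used here.

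The members and gene lists were chosen with earlier results of these data known. From the deposited values, group means were derived from the mean and the fold change, 95% intervals with a normal quantile, and differences between the comparisons against a normal distribution, with Benjamini-Hochberg adjustment over all genes tested in both tables. The adjustment and the difference test were run on simulated data, and the group means and intervals were not. The simulated errors were normal with the deposited standard error. They therefore lack the wider spread of the Wald statistics after deletion (robust SD 1.88). Trends were removed by lowess with a span of 0.3 (statsmodels 0.14.6). Named genes were all members, every called gene and the most abundant gene of each list, and NOS3 and THBD, beside a few identified in the text as chosen after their values were seen; other list genes enter counts only, and 1 gene was left out of the lists and is not reported here. Gene positions and 3′ ends came from GENCODE 29, promoters from RefSeq, both on GRCh38, which may not be the authors' annotation.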

Additional observations from a re-analysis of the deposited data

Results flagged for a closer look

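The effects of the treatments on KLF2 and KLF7 differed by a direct test of the difference. The siRNA log2 fold change minus that of the deletion was 2.84 for KLF2 and 1.22 for KLF7, from the deposited values of -0.08 and -2.92 for KLF2 and of 0.15 and -1.07 for KLF7. Samples could not be compared within a group, since no value per library was used.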

How the results depend on the processing

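No paired analysis was possible because no library has values of its own here. Leaving out replicates, other count normalisations and filters on counts per library were not run for the same reason. A filter on the deposited mean, at 8 CPM or more, was run. In the deletion comparison it left out KLF4 (3.22 CPM) and KLF11 (6.22 CPM), so neither has a result there. With this filter 4 KLF genes were called, which were KLF2, KLF7, KLF10 and KLF13. Of the 4 KLF genes called after deletion, 0 remained called with a Student t reference, 0 with statistics divided by their robust SD and 2 with the GC trend removed. In the siRNA comparison 0 were called under each alternative run. Of the 2 differences between the comparisons, 0 passed with statistics divided by their robust SD. The sign of KLF6 turned after deletion with the GC trend removed (-0.35) and the mean count trend removed (-0.074), and with the GC trend removed its difference was 0.27 and that of KLF11 was -0.037. Of 14 calls named from the lists outside the KLF genes, in either comparison, 14 were lost with a Student t reference and 11 with the robust SD. CALCRL is not among these 14. After deletion 0 genes of the whole table were called under either setting, so its call there was lost as well. The causes were not tested. The implied mean of KLF4 after deletion, 3.51 counts, lies close to the limit of 3 counts.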
